A study of Mus musculus with 5 samples.

Results

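The 10 genes described here are Fabp7, Slc1a3, Ptprz1, Tnc, Hopx, Gdf10, Aldoc, Sparcl1, Ednrb and Ttyh1, a list of radial glia and astroglial genes chosen by name from 15971 genes that were counted cell by cell in embryonic mouse cerebellum. They were followed in the cells with at least 1 UMI (unique molecular identifier, a counted molecule) of Sox2 and none of Barhl1, called gated cells here. Sox2 is a transcription factor of neural progenitors and Barhl1 one of the granule cell lineage. The gate held 1541 of the 4311 cells of the 4 libraries whose titles begin with RL, and all 10 genes passed the filter on low values in each comparison below.

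The series addresses the rhombic lip, named in its title, and its labels give no genotype, strain or treatment for these libraries beyond the letters UT, which they do not expand. RL e14 replicates 1 and 2 and RL e13 replicate 1 come from cerebellum at embryonic day 14, 14 and 13 by title and by age tag, while the title of RL e13 replicate 2 reads e13 and its age tag reads e14. A further library, titled EomesCreER and taken at e16, had 9 gated cells. How many embryos were pooled is not stated, and no label ties a replicate to an animal of its own, so a p-value covers only the spread among libraries, which may be technical.

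Radial glia are the elongated progenitors that line the ventricle of the embryonic brain, where they divide and give rise first to neurons and later to astrocytes. In the cerebellum, Bergmann glia and other astrocytes keep many of the same genes active after the progenitor stage. The list holds 3 genes of secreted proteins: Tnc encodes the matrix protein tenascin-C, Sparcl1 the matricellular protein hevin, and Gdf10 a ligand of the TGF-beta superfamily. Ptprz1, a receptor tyrosine phosphatase, Ednrb, the endothelin receptor B, Slc1a3, the glutamate transporter GLAST, and Ttyh1, a tweety family protein, sit in the membrane. Fabp7 is the brain fatty acid binding protein, Aldoc the glycolytic enzyme aldolase C, and Hopx a small homeodomain protein that does not bind DNA.

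In GENCODE M21 on GRCm38 the genes lie on chromosomes 10 (Fabp7), 15 (Slc1a3), 6 (Ptprz1), 4 (Tnc), 5 (Hopx and Sparcl1), 14 (Gdf10 and Ednrb), 11 (Aldoc) and 7 (Ttyh1). The RefSeq promoter table (GRCm38.p6) matched 9 of the 10 genes, with 12 start sites, and Sparcl1 had no entry. The 250 bases before the start are printed for Fabp7, Ednrb, Ptprz1 and Ttyh1, the 4 genes lower in Olig3-positive and in Otx2-positive cells below, and for Aldoc, which was lower in Mki67-positive cells but did not pass the test in the Otx2 split. Capitals mark the OTX core (TAATCC) and the RBPJ core (GTGGGAA), read on both strands. The regions are chr10:57784673-57784922 (plus strand) for Fabp7, chr14:103843702-103843951 (minus strand) for Ednrb, chr6:22875252-22875501 (plus strand) for Ptprz1, chr7:4119280-4119529 (plus strand) for Ttyh1 and chr11:78322823-78323072 (plus strand) for Aldoc.
Fabp7: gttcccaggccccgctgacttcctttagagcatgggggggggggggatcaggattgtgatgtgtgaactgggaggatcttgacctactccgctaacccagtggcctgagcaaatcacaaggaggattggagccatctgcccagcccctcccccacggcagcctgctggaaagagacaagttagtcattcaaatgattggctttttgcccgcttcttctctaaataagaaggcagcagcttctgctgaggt
Ednrb: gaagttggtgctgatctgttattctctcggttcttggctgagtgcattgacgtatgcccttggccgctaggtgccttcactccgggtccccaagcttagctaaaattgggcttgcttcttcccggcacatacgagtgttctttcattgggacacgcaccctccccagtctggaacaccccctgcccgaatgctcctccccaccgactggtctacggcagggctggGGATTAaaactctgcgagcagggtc
Ptprz1: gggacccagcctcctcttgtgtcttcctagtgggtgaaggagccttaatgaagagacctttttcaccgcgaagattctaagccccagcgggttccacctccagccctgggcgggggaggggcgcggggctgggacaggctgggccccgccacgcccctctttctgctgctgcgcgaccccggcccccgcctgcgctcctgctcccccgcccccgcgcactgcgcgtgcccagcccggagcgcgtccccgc
Ttyh1: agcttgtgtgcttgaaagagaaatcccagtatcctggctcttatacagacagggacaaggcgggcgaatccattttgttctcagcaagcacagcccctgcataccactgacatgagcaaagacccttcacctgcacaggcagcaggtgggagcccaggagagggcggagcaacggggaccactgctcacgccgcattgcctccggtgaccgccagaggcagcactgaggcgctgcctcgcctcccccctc
Aldoc: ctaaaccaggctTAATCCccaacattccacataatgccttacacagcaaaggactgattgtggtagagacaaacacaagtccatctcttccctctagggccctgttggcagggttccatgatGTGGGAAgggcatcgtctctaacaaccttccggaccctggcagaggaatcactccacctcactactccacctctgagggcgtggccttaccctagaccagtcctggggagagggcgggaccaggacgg
The OTX core stood 25 to 20 bases before the Ednrb start and 238 to 233 bases before this Aldoc start, and in none of the other 10 windows. It is held by 6.25% of the 32851 windows of this length in the table. The RBPJ core stood in windows of Aldoc and Tnc, and in 5.42% of all windows. The SOX cores ACAAAG and ACAATG were in no member window, against 16.5% and 10.7% of all windows. The N-box CACNAG was in 6 of the 12 windows (36.7% of all) and the E-box CANNTG also in 6 (66.2% of all). No OTX or RBPJ match overlapped another motif. A match in the letters shows no binding.

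The 4 RL libraries had 706 to 1818 cells and 13607965 to 33502151 UMIs, and their gated cells had a median of 14954 to 18312 UMIs. RL e13 replicate 1 stood apart: 85.8% of its cells were gated, against 32.8% in RL e13 replicate 2 and 20.1% and 17.3% in RL e14 replicates 1 and 2. Olig3, a factor of rhombic lip progenitors, was detected in 55.3% of its gated cells, against 17.4% in RL e13 replicate 2 and 10.0% and 3.12% in RL e14 replicates 1 and 2. Results are therefore also given without it. Barcodes shared by 2 RL libraries numbered 3, and 3 gated cells carried one. As a check of the label, 15 of the 19 tested genes of a wider glial list were higher in gated cells than in the cells with Barhl1 and no Sox2, and 3 were lower. Of all genes, 25.1% were called higher and 17.4% lower. Genes that passed the filter on low values through the gated cells alone could only be called higher. How many of the 15 did so was not counted. The check covers the tested genes only.

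All 10 genes were higher in the gated cells than in the Sox2-negative, Barhl1-positive cells of the same libraries, which belong to the granule lineage by their marker. Levels are mean UMIs per 1000000 UMIs (CPM) over cells. The gated cells had 4408 to 9177 CPM of the 10 genes together, against 204 to 262 CPM in the Barhl1-positive cells. The 10 calls (limma on log2(CPM + 5), Benjamini-Hochberg over 8517 genes) stand against 25.1% of all genes called higher. The filter on low values took the mean over both classes. Ednrb, Hopx, Tnc, Aldoc, Ptprz1, Gdf10 and Ttyh1 averaged 0.67 to 5.06 CPM in Barhl1-positive cells and passed it through the gated cells alone. A gene that passes this way can only be called higher, so those calls are a description. TMM scaling lowered the share of higher calls among all called genes to 48.2%, against 59.1% without it, and kept all 10 genes higher. Other lists moved in the same comparison. All 7 neuron genes were lower (289 to 510 CPM summed in gated cells, against 4237 to 8012 CPM). Of 15 genes of the G2 and M phase list 13 were higher, and so were 7 of 8 tested immediate early genes, which summed to 2006 to 4822 CPM in gated cells, against 1377 to 2097 CPM. Their part in the members' differences was not tested.

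Fabp7 had 3760, 6035, 3412 and 5087 CPM in gated cells of RL e14 replicates 1 and 2 and RL e13 replicates 1 and 2, against 150, 158, 198 and 189 CPM in the Barhl1-positive cells. Its log2 difference was 4.65 ± 0.16 (SE, n = 4 libraries, adjusted p = 2.4e-06). Ttyh1 had 208, 440, 324 and 335 CPM in gated cells, against 2.76, 5.55, 6.28 and 5.67 CPM. Ednrb had 173, 396, 52.5 and 169 CPM in gated cells, against 0, 1.46, 0 and 1.21 CPM. The groups did not overlap for any of these 3 genes, and Ednrb was without a UMI in the Barhl1-positive cells of 2 libraries. How many of all genes were without overlap was not counted, here or in the splits below.

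Among the secreted proteins, Sparcl1 had 514, 924, 228 and 669 CPM in gated cells, against 11.4, 25.6, 14.4 and 28.3 CPM in Barhl1-positive cells. Gdf10 had 289, 389, 179 and 221 CPM, against 2.73, 1.72, 5.66 and 2.97 CPM. Tnc had 92.2, 134, 11.2 and 96.8 CPM, against 3.97, 3.43, 0 and 2.38 CPM. RL e13 replicate 1 was the lowest of the 4 libraries for each of these genes, and for Tnc it lay far under the others.

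Slc1a3 had 352, 635, 163 and 351 CPM in gated cells, against 26.7, 23.2, 20.5 and 25.8 CPM. Ptprz1 had 37.2, 98.4, 19.8 and 63.8 CPM, Aldoc 37.4, 74.9, 13.6 and 48.2 CPM, and Hopx 25.6, 50.2, 5.08 and 26.9 CPM. These 3 stayed at or under 6.15 CPM in the Barhl1-positive cells of each library. RL e14 replicate 2 was the highest library for all 10 genes, and RL e13 replicate 1 the lowest for all but Ttyh1, which was lowest in RL e14 replicate 1.

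**Figure D1:**
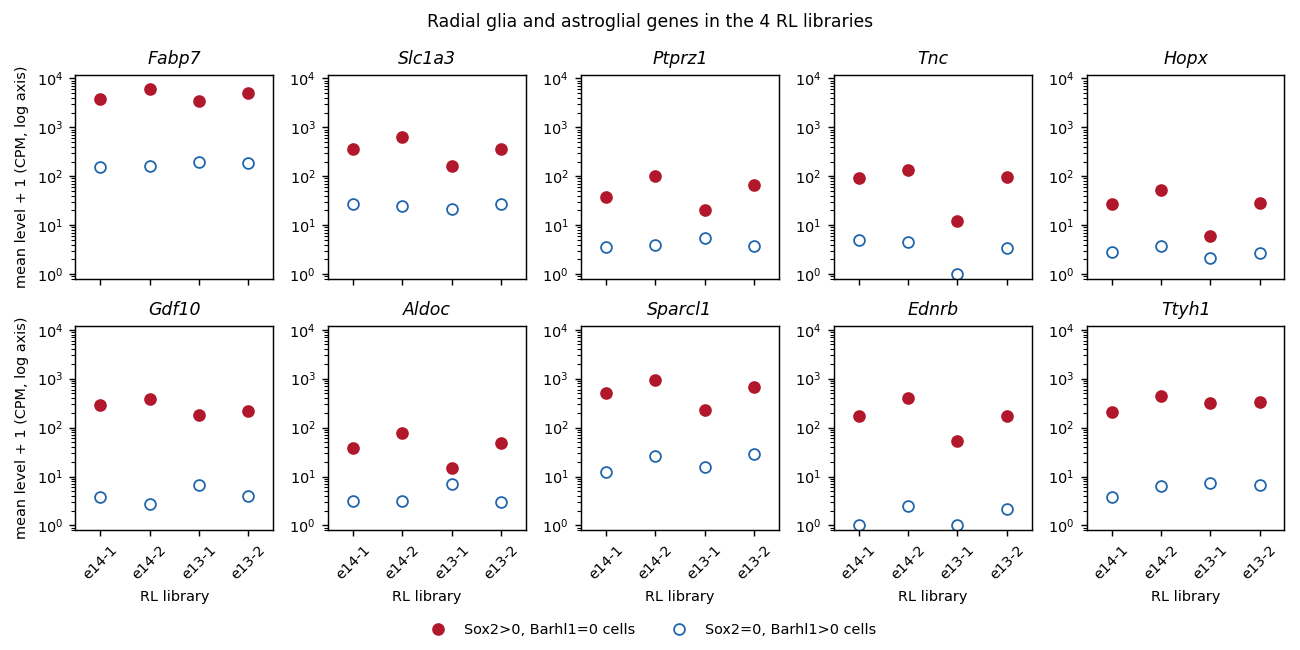
Mean level plus 1 (CPM, log axis) of each gene in each RL library, named by age and replicate on the x axis, in Sox2-positive, Barhl1-negative cells (filled) and in Sox2-negative, Barhl1-positive cells (open). All 10 genes were higher in the filled points, and RL e13 replicate 1 (e13-1) was the lowest library for 9 of them.

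The genes differed in how many gated cells held them. With each cell thinned to 9000 UMIs, which left out 77 of the 1541 gated cells, Fabp7 was found in 97.5% to 100% of gated cells. The same share ran from 39.3% to 72.4% in thinned Barhl1-positive cells, whose median depth before thinning was 15459 to 25350.5 UMIs. Ttyh1 was found in 72.5% to 89.2% of thinned gated cells, against 2.53% to 4.29%, and Gdf10 in 63.2% to 78.4%, against 1.48% to 10.7%. Unthinned, the gated shares were 82.4% to 95.5% for Ttyh1 and 76.7% to 85.9% for Gdf10.

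By the ratio of the highest to the lowest library, the shares of Hopx and Tnc were the most uneven of the 10. Tnc was found in 41.0% and 45.9% of thinned gated cells of RL e14 replicates 1 and 2 and in 7.12% and 44.6% of those of RL e13 replicates 1 and 2 (57.1%, 58.6%, 13.7% and 56.3% unthinned). Hopx was found in 16.5% and 29.7% of thinned gated cells of RL e14 replicates 1 and 2, and in 3.22% and 16.5% of those of RL e13 replicates 1 and 2 (22.4%, 35.9%, 8.09% and 25.5% unthinned). In percentage points the range was wider for Ednrb, from 31.0% to 74.8% of thinned gated cells, and also wide for Ptprz1, from 13.6% to 45.9%. In thinned Barhl1-positive cells the shares were 0% to 3.22% for Tnc and 0% to 2.66% for Hopx, and each 0% is 0 of 28 cells of RL e13 replicate 1, which allows a share of up to 10.7% (counting error only). In that library the gated shares of Tnc and Hopx lay under this limit, so a difference from the Barhl1-positive cells was not detectable there in shares of cells. Free RNA can give such shares, and its part in them was not tested.

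A gated cell held a median of 6, 7, 5 and 6 of the 10 genes after thinning in RL e14 replicates 1 and 2 and RL e13 replicates 1 and 2, against 1 in Barhl1-positive cells of each library. Cells with 8 or more of the genes made up 17.0% and 38.7% of thinned gated cells in RL e14 replicates 1 and 2, and 0.847% and 20.2% in RL e13 replicates 1 and 2. No Barhl1-positive cell had 8 or more, 0 of 1337, which allows up to 0.224%. All 10 genes together were found in 7 thinned gated cells, 4 of them in RL e14 replicate 2 and 3 in RL e13 replicate 2.

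**Figure D2:**
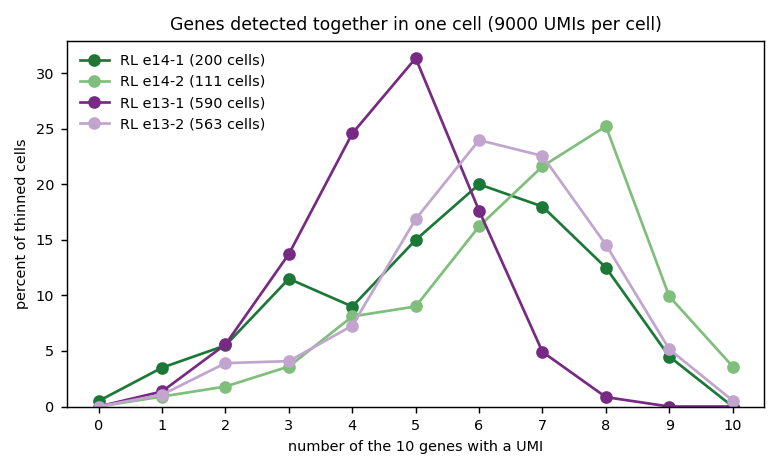
Percent of thinned gated cells (y axis) by the number of the 10 genes with a UMI (x axis), 1 line per RL library. The most frequent number was 5 in RL e13 replicate 1, 8 in RL e14 replicate 2 and 6 in both other libraries.

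At the edge of the gate, the 93 cells with exactly 1 Sox2 UMI and no Barhl1 had 3036 ± 1512 CPM of Fabp7 (mean ± SD over libraries), and the 68 cells with neither gene had 1545 ± 1078 CPM. For Ednrb the values were 189 CPM just inside and 64.2 CPM just outside, for Gdf10 221 and 82.3 CPM, and for Aldoc 16.6 and 19.5 CPM. At the other edge, the 120 cells with Sox2 and exactly 1 Barhl1 UMI had 3176 ± 1224 CPM of Fabp7 and 380 ± 187 CPM of Sparcl1, against 3036 and 417 CPM in the 93 cells just inside. Ednrb had 104 ± 90.2 CPM at that edge, Gdf10 117 ± 34.8 CPM and Aldoc 21.7 ± 12.6 CPM, against 189, 221 and 16.6 CPM just inside. Cells just outside the gate therefore still held these genes. At the Barhl1 edge Fabp7 and Sparcl1 differed by less than the spread over libraries. Gdf10 and Ednrb had lower means there, but their SDs just inside, 110 and 196 CPM, were larger than these differences.

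The genes varied together from cell to cell. Over the 45 pairs, the median Pearson r across gated cells (mean of the 4 libraries) was 0.22, where the median over all pairs of 9258 genes was 0.00289. As a description, 44 of the 45 pairs were above 0 and 17 above 0.3. The points of each r share their library, and each gene's r with the log UMI total of the cell lay between -0.21 and 0.02. Thinned cells gave a median of 0.20.

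Fabp7 was the gene most closely tied to the others, with a median r of 0.41 over its 9 pairs. Its r with Ednrb was 0.60, 0.60, 0.44 and 0.55 in RL e14 replicates 1 and 2 and RL e13 replicates 1 and 2, and with Ttyh1 it was 0.49, 0.45, 0.48 and 0.61. Its r with Slc1a3 was 0.71, 0.65, 0.07 and 0.52. The first 2 pairs held in each library, while the pair with Slc1a3 was near 0 in RL e13 replicate 1 alone.

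Aldoc was the loosest member, with a median r of 0.09, and its r was 0.00 with Ednrb and -0.01 with Tnc. Tnc (0.16) and Hopx (0.17) were next. The median over pairs was 0.28 and 0.36 in RL e14 replicates 1 and 2, and 0.08 and 0.25 in RL e13 replicates 1 and 2. Without RL e13 replicate 1 it was 0.28, and in cells with no Otx2 it was 0.17, with 7 pairs above 0.3.

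**Figure D3:**
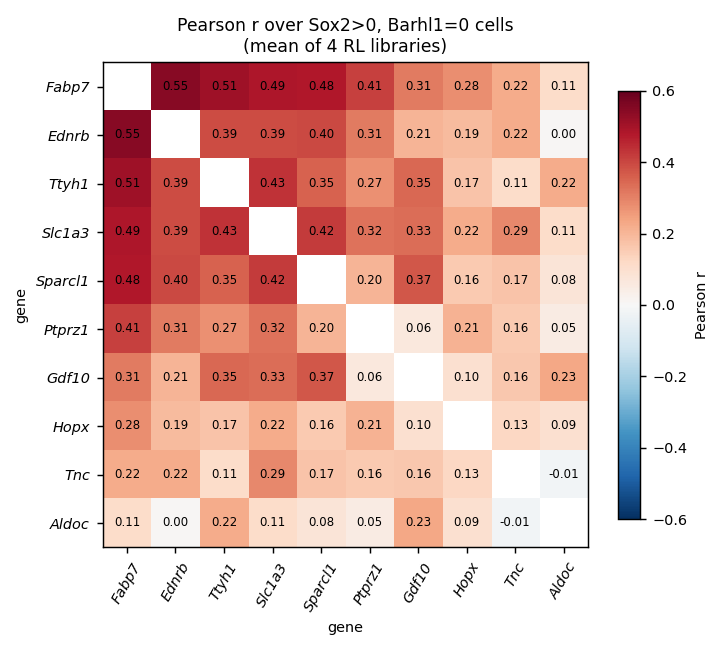
Pearson r of each pair of the 10 genes over gated cells of 1 library, as the mean of the 4 RL libraries, with genes on both axes and r as colour and number. Fabp7, Ednrb, Ttyh1, Slc1a3 and Sparcl1 form the block of higher values, from 0.35 to 0.55, and Aldoc the row with the lowest.

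Outside the list, the gene with the highest mean r to the 10 members was Ptn (0.39), which encodes pleiotrophin, a ligand of the Ptprz1 protein. Cyp26b1 (0.36), an enzyme that degrades retinoic acid, Pla2g7 (0.34), Sparc (0.33), Pea15a (0.32) and Nid1 (0.32) followed, and Ckb, Gpm6b and Nkain4 were also among the highest, each at 0.31 or 0.32. Ptn and Cyp26b1 were also closest to Fabp7, at 0.68 and 0.65. Sparcl1 was closest to Cyp26b1 (0.64) and Msx3 (0.57), Slc1a3 to Sparc (0.48) and Nid1 (0.44), Ednrb to Ckb (0.50) and Cyp26b1 (0.49), and Ttyh1 to Ptn (0.50) and Ndrg2 (0.43).

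The looser members shared some of these neighbours. Aldoc was closest to Ndrg2 (0.33) and Stom (0.21), Gdf10 to Gucy1a3 (0.42) and Dhrs3 (0.39), Ptprz1 to Aldh1l1 (0.43) and Ptn (0.42), and Tnc to Grm3 (0.29) and Nid1 (0.27). Hopx had an r of 0.25 with Aldh1l1. The lowest mean r to the list was that of Otx2, a homeodomain factor of the roof plate and of part of the rhombic lip, at -0.30, followed by Htra1 and Sp5 (each -0.25), Atoh1 (-0.24), the factor that starts the granule lineage, and Hs2st1 (-0.22). With Otx2, Sparcl1 had an r of -0.58, Fabp7 -0.55 and Ednrb -0.41.

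Of the 10 genes, 7 were lower in gated cells with Otx2 than in gated cells without it, in a background where 3.6% of all 8385 genes tested were lower and 2.48% higher. They were Ednrb, Fabp7, Ptprz1, Sparcl1, Hopx, Gdf10 and Ttyh1. The median log2 difference of the list was -0.93, against -0.01 for all genes. Otx2-positive cells numbered 100, 27, 88 and 167 in RL e14 replicates 1 and 2 and RL e13 replicates 1 and 2, or 47.6%, 21.1%, 14.5% and 28.0% of gated cells.

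Ednrb had 34.1, 85.5, 18.3 and 39.7 CPM in Otx2-positive cells of RL e14 replicates 1 and 2 and RL e13 replicates 1 and 2, against 300, 479, 58.3 and 219 CPM in Otx2-negative cells. It was lower in each library, and the 2 sets overlapped only through the low Otx2-negative value of RL e13 replicate 1. The log2 difference was -2.29 ± 0.20 (SE, n = 4, limma adjusted p = 0.00016). Fabp7 had 1477, 1902, 1649 and 2327 CPM in Otx2-positive cells, against 5835, 7140, 3711 and 6159 CPM in Otx2-negative cells. The sets did not overlap, and the log2 difference was -1.61 ± 0.11 (adjusted p = 7.5e-05).

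Sparcl1 had 205, 483, 55.4 and 360 CPM in Otx2-positive cells, against 795, 1042, 257 and 789 CPM, a log2 difference of -1.57 ± 0.16 (adjusted p = 0.00039). Ptprz1 had 13.04, 31.7, 12.1 and 15.3 CPM, against 59.2, 116, 21.1 and 82.6 CPM, a log2 difference of -1.57 ± 0.22 (adjusted p = 0.0024). Both genes were lower in each library, although the values of different libraries overlapped. Ttyh1 had the tightest difference, from -0.93 to -0.62 over the 4 libraries and -0.75 ± 0.07 in the fit (adjusted p = 0.00028).

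Gdf10 had 170, 274, 80.3 and 188 CPM in Otx2-positive cells, against 397, 420, 196 and 234 CPM, a log2 difference of -0.84 ± 0.14 (adjusted p = 0.0080). Without RL e14 replicate 1 this call was lost. Hopx had a log2 difference of -1.02 ± 0.25 (adjusted p = 0.044), and its call was lost in 8 of 16 alternatives, among them leaving out RL e14 replicate 1, RL e14 replicate 2 or RL e13 replicate 2. Both genes were lower in each library, Hopx by the least in RL e13 replicate 1 (-0.32), where its level was 3.33 CPM against 5.38 CPM.

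The remaining 3 genes did not pass the test. Slc1a3 had 191, 315, 186 and 250 CPM in Otx2-positive cells, against 498, 720, 159 and 391 CPM, and was higher only in RL e13 replicate 1 (adjusted p = 0.077). Tnc had 59.2, 48.3, 30.9 and 68.9 CPM, against 122, 157, 7.84 and 108 CPM, with a log2 difference of 1.48 in RL e13 replicate 1 and between -1.60 and -0.61 in the other libraries. Without RL e13 replicate 1, Slc1a3 (-1.06 ± 0.12) and Tnc (-1.07 ± 0.17) were called as well, which made 9 of 10 genes lower, where 5.13% of all genes were lower. Aldoc had 33.0, 105, 12.6 and 31.6 CPM, against 41.5, 66.8, 13.8 and 54.6 CPM, with no common direction.

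**Figure D4:**
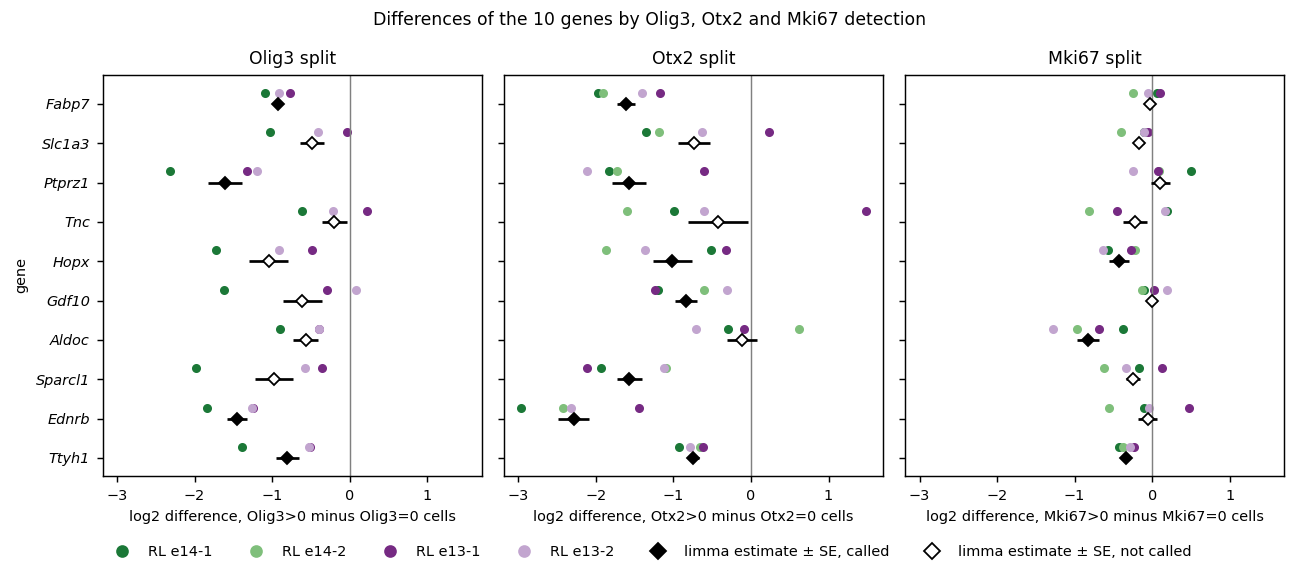
Log2 differences (x axis) of the 10 genes (y axis) between gated cells with and without a UMI of Olig3, Otx2 or Mki67. Circles are single libraries, diamonds the limma estimate with its SE, filled where called, and values left of the line at 0 are lower in the cells with the marker. The Otx2 panel has 7 filled diamonds, the Olig3 panel 4 and the Mki67 panel 3, all left of 0.

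Markers of the roof plate, the dorsal midline strip that forms the choroid plexus, moved with the Otx2 split. Of 17 listed genes 13 were in the table and 9 were tested. Of these, 7, Otx2 among them, were higher and none lower in Otx2-positive cells (2.48% of all genes were higher). Besides Otx2, which defines the split, the largest were Wnt1 (153 ± 72.9 CPM, against 12.9 ± 12.95 CPM) and Rspo2 (41.8 ± 25.2 CPM, against 0.597 ± 0.653 CPM). Rspo2 passed the filter, which took the mean over both classes, through the Otx2-positive cells alone and could only be called higher. The summed list had 733 to 8285 CPM in Otx2-positive cells, against 51.2 to 185 CPM, and the highest sum came from 1 cell of RL e14 replicate 2 that held 4043 of the 4056 UMIs of Ttr, the transthyretin gene of the choroid plexus. A UMI of Lmx1a, Wnt1, Rspo1, Rspo2 or Folr1 was found in 83 of 100, 17 of 27, 86 of 88 and 113 of 167 Otx2-positive cells. All gated cells with one numbered 93, 22, 293 and 159 in RL e14 replicates 1 and 2 and RL e13 replicates 1 and 2. In RL e13 replicate 1, most of them thus had no Otx2. Lmx1a is also on the rhombic lip list.

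Only RL e13 replicate 2 kept 20 Otx2-positive cells once cells with those 5 genes were left out, so no test was possible. There, Fabp7 had 2924 CPM in 54 Otx2-positive cells, against 6175 CPM in 384 Otx2-negative cells. Ednrb had 74.5 CPM, against 232 CPM, and Ptprz1 16.3 CPM, against 76.4 CPM. The log2 differences of the 10 genes in this library lay between -1.94 (Ptprz1) and 0.13 (Gdf10), and 9 were below 0. The part of roof plate cells in the Otx2 differences was otherwise not tested.

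Other progenitor genes moved with the same split. Of 20 tested genes of the wider glial list, 8 were lower in Otx2-positive cells, among them Aldh1l1 (a log2 difference of -2.36 ± 0.29), a folate enzyme, and Slc1a2 (-2.14 ± 0.24), the glutamate transporter GLT-1 of astrocytes, and Pax6 and Cd63 were higher. The ventricular zone genes Ptf1a (-2.44 ± 0.22), a factor of the GABAergic lineages, and Kirrel2 (-2.02 ± 0.14) were lower. Of 7 rhombic lip genes 6 were higher, led by Msx1 (2.09 ± 0.30) and Cdon (2.04 ± 0.25), and Msx3 was lower (-2.91 ± 0.30). In the Notch list, Nrarp, Notch1 and Hes5 were lower and Hes1 was higher, of 10 tested. The endothelial list had 1 tested gene, Kdr, which was higher (2.86 ± 0.29), while the endothelial genes Pecam1 and Cldn5 were at or under 0.311 CPM in the gated cells of each library. The summed endothelial list was 28.9 to 85.5 CPM, against 1.75 to 3.95 CPM. Kdr thus passed the filter on low values through the Otx2-positive cells alone and could only be called higher.

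Of the 10 genes, 4 were lower in gated cells with Olig3 than in those without it: Ednrb, Fabp7, Ptprz1 and Ttyh1. The background was 0.791% of 8344 genes lower and 0.336% higher, and the median log2 difference was -0.86 for the list, against -0.01 for all genes. RL e14 replicate 2 had 4 Olig3-positive cells and did not enter, so the comparison rests on 21, 335 and 104 Olig3-positive cells of RL e14 replicate 1 and RL e13 replicates 1 and 2.

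Fabp7 had 1863, 2592 and 2947 CPM in Olig3-positive cells of these 3 libraries, against 3970, 4426 and 5538 CPM in Olig3-negative cells. The sets did not overlap, and the log2 difference was -0.92 ± 0.06 (SE, n = 3, limma adjusted p = 0.00013). Ednrb had 48.6, 30.6 and 75.5 CPM, against 187, 79.5 and 189 CPM, again without overlap, and a log2 difference of -1.45 ± 0.13 (adjusted p = 0.00098). Ptprz1 had 4.18, 9.81 and 28.4 CPM, against 40.9, 32.0 and 71.3 CPM, without overlap (-1.61 ± 0.22, adjusted p = 0.012). These 3 genes were thus lower in every library that entered.

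Ttyh1 had 81.8, 272 and 245 CPM in Olig3-positive cells, against 222, 389 and 354 CPM (-0.81 ± 0.15, adjusted p = 0.043), and its values overlapped across libraries. Its call was lost in 5 of 17 alternatives, among them a pseudocount of 1 CPM and TMM scaling. The other 6 genes had log2 differences from -1.04 ± 0.25 (Hopx) to -0.20 ± 0.16 (Tnc) and did not pass the test. The number of members lower was 8 without RL e13 replicate 1 (2.45% of all genes lower), 7 without RL e13 replicate 2 (1.54%) and 5 without RL e14 replicate 1 (1.94%). Each of those fits rests on 2 libraries, and more of all genes were called in each than the 0.791% above. The log2 difference of Sparcl1 was -1.98 in RL e14 replicate 1, against -0.36 and -0.58 in RL e13 replicates 1 and 2, and that of Gdf10 was -1.62, against -0.29 and 0.08. With 21 Olig3-positive cells of 1 RL e14 library, a difference between ages and one between libraries cannot be told apart here.

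Olig3-positive cells also had more Otx2: 418, 48.0 and 179 CPM, against 158, 13.3 and 67.1 CPM, a log2 difference of 1.42 ± 0.09 (limma adjusted p = 0.00017). Olig3, Otx2 and Mki67 also entered 1 fit together, with 19 profiles of 4 libraries. Only RL e13 replicates 1 and 2 had Olig3-positive profiles in it, and RL e14 replicate 2 had no Otx2-positive profile. Fabp7 (-0.65 ± 0.09) and Ttyh1 (-0.38 ± 0.07) were still lower with Olig3, where 0.61% of all genes were lower. The log2 differences of Ednrb (-0.78 ± 0.21) and Ptprz1 (-0.73 ± 0.29) were then not called. For Otx2 the same fit gave 8 lower members (5.59% of all genes lower, 4.67% higher), Slc1a3 (-0.47 ± 0.13) being the one added, and for Mki67 it gave 2, Aldoc and Ttyh1 (10.1% lower). In cells without Otx2, 4 of the 10 genes were lower with Olig3, over RL e13 replicates 1 and 2 alone, where 2.18% of all genes were lower. Classes of 1 library are separate profiles in the joint fit and share their source.

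The 4 combinations could be set side by side in RL e13 replicate 2. Fabp7 had 1881 CPM in 53 cells with both factors, 4055 CPM in 51 cells with Olig3 alone, 2535 CPM in 114 cells with Otx2 alone and 6442 CPM in 379 cells with neither. Ednrb had 31.3, 122, 43.6 and 232 CPM in the same order, and Ptprz1 8.38, 49.2, 18.5 and 87.1 CPM. Gdf10 had 176, 289, 194 and 226 CPM, with its highest value in the Olig3-only cells. In RL e13 replicate 1, Fabp7 had 1379 CPM in 70 cells with both, 2912 CPM in 265 cells with Olig3 alone and 4548 CPM in 253 cells with neither, and 18 cells had Otx2 alone.

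In the Olig3 split, the wider glial list had 7 of 20 tested genes lower, among them Aldh1l1 (-1.82 ± 0.20) and Slc1a2 (17.5 ± 3.86 CPM, against 39.6 ± 2.56 CPM), and Pax6 and Cd63 higher. The ventricular zone gene Ptf1a was lower (-1.37 ± 0.20). Of 7 tested roof plate genes 3 were higher, Otx2, Wnt1 (0.80 ± 0.15) and Msx2 (0.79 ± 0.10), and the summed list had 333 to 842 CPM in Olig3-positive cells, against 242 to 439 CPM. Without cells holding the 5 roof plate genes named above, 5 of the 10 members were lower in RL e13 replicates 1 and 2, the 2 libraries that kept enough cells, where 1.89% of all genes were lower. In RL e13 replicate 1 that left 134 of 335 Olig3-positive and 179 of 271 Olig3-negative cells. Atoh1 was higher in Olig3-positive cells (1.63 ± 0.10).

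Mki67, a protein of dividing cells, split the gated cells with little change in most of the 10 genes. Aldoc, Hopx and Ttyh1 were lower in Mki67-positive cells, none was higher, and 7.73% of all 8379 genes tested were lower and 10.5% higher. The median log2 difference was -0.20 for the list, against -0.03 for all genes. Mki67-positive cells numbered 115, 45, 323 and 320, or 54.8%, 35.2%, 53.3% and 53.6% of gated cells in RL e14 replicates 1 and 2 and RL e13 replicates 1 and 2.

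Aldoc had 32.3, 44.2, 9.53 and 26.9 CPM in Mki67-positive cells of RL e14 replicates 1 and 2 and RL e13 replicates 1 and 2, against 43.6, 91.5, 18.3 and 72.7 CPM in Mki67-negative cells. It was lower in each library, although values of different libraries overlapped, with a log2 difference of -0.83 ± 0.14 (SE, n = 4, limma adjusted p = 0.0021). Ttyh1 had 179, 368, 299 and 303 CPM, against 243, 479, 353 and 372 CPM, lower in each library by -0.43 to -0.24 (-0.33 ± 0.05, adjusted p = 0.0012). In cells without Otx2 this call was lost. Hopx had a log2 difference of -0.42 ± 0.13 (adjusted p = 0.045), and its call was lost in 12 of 17 alternatives, among them leaving out RL e14 replicate 1, RL e13 replicate 1 or RL e13 replicate 2.

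Of the 7 genes lower with Otx2, 5 did not pass the test here. The log2 differences were -0.03 ± 0.05 for Fabp7, -0.06 ± 0.13 for Ednrb, 0.10 ± 0.12 for Ptprz1 and -0.01 ± 0.06 for Gdf10, and Sparcl1 had -0.25 ± 0.09. Fabp7 had 3838, 5395, 3517 and 5006 CPM in Mki67-positive cells, against 3665, 6382, 3292 and 5180 CPM in Mki67-negative cells. Slc1a3 (-0.17 ± 0.06) also missed the threshold, and Sparcl1 was called lower without RL e13 replicate 1 and in thinned cells.

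Otx2 itself was higher in Mki67-positive cells (0.74 ± 0.17). Without cells holding the 5 roof plate genes, Fabp7 (0.12 ± 0.04) and Ptprz1 (0.42 ± 0.12) were called higher in Mki67-positive cells (9.03% of all genes higher), and Aldoc and Ttyh1 stayed lower (5.88% lower). All 15 genes of the G2 and M phase list were higher, led after Mki67 by Top2a (4.45 ± 0.08) and Tpx2 (4.10 ± 0.19). Of 21 tested genes of the wider glial list 10 were lower, with Hes5 (-0.75 ± 0.10) and Slc1a2 (-0.50 ± 0.12) as the largest, and Gja1 was higher (0.63 ± 0.10). Of 8 tested immediate early genes 6 were lower, and their summed list had 1871 to 3645 CPM in Mki67-positive cells, against 2159 to 5461 CPM, and their part in the differences was not tested.

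Cells positive for a split gene had more UMIs. Medians were 17243, 18323, 20539 and 18602 UMIs in Otx2-positive cells, against 13718.5, 14292, 18079.5 and 15097 UMIs in Otx2-negative cells of RL e14 replicates 1 and 2 and RL e13 replicates 1 and 2. With all cells thinned to 9000 UMIs the Otx2 split had 6 lower members, where 2.26% of all genes were lower. Hopx then missed the threshold, with a log2 difference of -1.30 ± 0.40. The Olig3 split had 4 lower members over the RL e13 libraries alone (0.407% of all genes lower). The Mki67 split had 3, Aldoc, Ttyh1 and Sparcl1 (4.51% lower). Thinned log2 differences with Otx2 were -1.69 ± 0.13 for Fabp7 and -2.15 ± 0.26 for Ednrb.

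Between ages, none of the 10 genes and none of the 8399 genes tested passed (0% called higher and 0% lower, limma, 2 RL e14 against 2 RL e13 libraries by title). At an unadjusted p under 0.05 there were 781 genes, of which 1 is a member, Gdf10. It averaged 339 ± 70.8 CPM in RL e14 gated cells and 200 ± 29.4 CPM in RL e13 gated cells (SD, n = 2 each), a log2 difference of 0.74 ± 0.18 (adjusted p = 0.52). An exact two-sided permutation test of 2 against 2 libraries cannot go below 0.333, the value that Slc1a3, Gdf10 and Ednrb had.

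Of the 10 log2 differences 9 were above 0, and the exception was Ttyh1 at -0.12 ± 0.33. The median was 0.85 for the list, against -0.06 for all genes. The largest were 1.52 ± 0.81 for Tnc (113 ± 29.7 CPM, against 54.0 ± 60.5 CPM), 1.42 ± 0.59 for Ednrb (284 ± 157 CPM, against 111 ± 82.4 CPM) and 1.19 ± 0.57 for Hopx. The SDs show how much the 2 libraries of an age differed. Without RL e13 replicate 1, which leaves 1 RL e13 library, the log2 difference of Tnc was 0.19. Fabp7 (-0.09), Ptprz1 (-0.06) and Ttyh1 (-0.15) were then below 0. Sparcl1 had 0.04, Aldoc 0.13, Hopx 0.36, Slc1a3 0.42, Gdf10 0.59 and Ednrb 0.62. Leaving out RL e13 replicate 2, or grouping by age tag, sets the other libraries against RL e13 replicate 1 alone. Tnc was then called higher, but that library has no replicate there and the spread comes from the other libraries, so the library and the age cannot be told apart. Immediate early genes summed to 3720 to 4822 CPM in RL e14 and 2006 to 4002 CPM in RL e13 gated cells, and their part was not tested. The interaction of the Otx2 split with age had no member and no gene past the threshold in limma (488 genes and 4 members at an unadjusted p under 0.05), and that of the Mki67 split had no member and 1 gene (486 genes and 1 member, Ednrb, at an unadjusted p under 0.05).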

How the data were processed

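Dissociated cerebellar cells were profiled with 10x Chromium 3′ kits, per the labels' protocols, and Cell Ranger and mm10 stand in a list of tools and builds, per the submitters' processing notes. Filters on cells and genes and any doublet removal were not given in the sources used here. In the main table the authors deposited are natural log values for 15971 genes in 6987 cells. Back-transformed, they summed to 10000 per cell, and all 29540669 values above 0 were whole UMI counts within a tolerance of 0.01, so that each value is ln(1 + 10000 × count / total). A second deposited file gives the batch of each cell. The batch of the e16 library and that of RL e14 replicate 1 were matched by elimination, each as the title left for its name.

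Each class of a library entered with at least 20 cells, as the mean of the back-transformed values over its cells, set to a sum of 1000000 (CPM). The test was limma 3.58.1 (R 4.3.3, trend) on log2(CPM + 5), which makes changes at low levels look smaller, with genes of 10 CPM or more on average, Benjamini-Hochberg adjustment over all genes tested and a threshold of 0.05. Both classes of a split come from 1 library, so the library was a block. This pairing follows from the design and not from replicate numbers. Count tests were not used, although whole UMI counts could be recovered from the deposited log values. Shares of cells have 95% Wilson intervals of counting error only, and the limit printed beside a count of 0 is 3 counts over the number of cells. The interaction of the Olig3 split with age, planned for all splits, is not given, as 1 RL e14 library entered. No doublet caller was run, and dropping the 5% of cells richest in UMIs was an alternative. Other alternatives were pseudocounts of 1 and 20 CPM, no filter, TMM scaling (unweighted), summed counts, 2 or more UMIs for the gate or the split gene, thinning to 9000 UMIs, each library left out, no block, a joint fit of the 3 splits, and the age tag. Leaving out cells with roof plate genes was chosen after seeing the data. On simulated profiles with 200 changed genes (dispersion 0.03), log2 changes of 1 were recovered for 74.3% (Olig3, 8309 genes tested), 93.2% (Otx2, 8355), 90.0% (Mki67, 8361) and 56.0% (age, 8359) of changed genes. That dispersion was set and not estimated from these libraries, so fewer changes are recovered where libraries differ more. The members, lists and rules were chosen with earlier results of these data known. Named non-members are the 10 genes with the highest mean r, the 2 closest to each member, and up to 3 called genes per list with the largest differences; the 5 genes with the lowest mean r, and further genes called in a list, were named after their values were seen. Some genes that these rules name are not reported here. Analyses used Python 3.11.15, numpy 2.4.6, scipy 1.17.1 and pandas 2.3.3.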

Additional observations from a re-analysis of the deposited data

Results flagged for a closer look

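In the e16 library, which enters no comparison, 9 of the 10 genes had a higher level in its 9 gated cells than in its 2337 Barhl1-positive, Sox2-negative cells. How many of all genes were higher there was not counted, and Hopx rested on 7 UMIs and Ptprz1 on 15. Fabp7 had 9851 CPM, against 17.1 CPM, Slc1a3 1708 CPM, against 1.90 CPM, and Ednrb 1590 CPM, against 0.419 CPM. Aldoc had a UMI in 0 of the 9 cells, which allows a share of up to 33.3%.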

How the results depend on the processing

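All 10 genes stayed higher in gated than in Barhl1-positive cells under each alternative run. Without the block that pairs the classes of a library (no replicate block), the members lower were 1 with Otx2, 0 with Olig3 and 0 with Mki67, and all genes called were 112, 2 and 475, against 510, 94 and 1527 with it. The age comparison was unpaired, as each library has 1 title age and gives 1 profile. With no filter, Olig3 gave 2 members lower and 14 genes, and Otx2 235 genes. The joint fit gave 2 members lower with Olig3 and 857 genes with Otx2. Olig3 called 344 genes without the 5% of cells with the most UMIs, 375 with 2 or more Sox2 UMIs, 229 with 2 or more Olig3 UMIs, 271 in cells without Otx2 and 238 without cells holding roof plate genes. RL e14 replicate 1 entered in none of these Olig3 settings, which kept RL e13 replicates 1 and 2 alone. Thinned cells gave 54 genes for Olig3 (the same libraries), 298 for Otx2 and 990 for Mki67. In cells without Otx2, Mki67 had 1 member lower and age 1 gene. Without cells holding roof plate genes, chosen after seeing the data, Mki67 had 2 members higher, Fabp7 among them (0.12, against -0.03 with all cells), and the Otx2 split had too few cells. By age tag, 1 member and 31 genes were called, with RL e13 replicate 1 alone on one side and the spread taken from the other libraries. Leaving out 1 library gave 4 to 8 members lower and 94 to 300 genes for Olig3, 5 to 9 and 197 to 798 for Otx2, 2 to 3 and 873 to 1803 for Mki67, 0 to 1 members higher and 0 to 34 genes for age, and 2387 to 4156 genes for gated against Barhl1-positive cells. The causes were not tested. Hopx had the fewest UMIs of the 10 genes in gated cells of each library, 57 to 234.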
